A study of Mus musculus with 4 samples.

Results

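A set of 10 genes known from adipocytes was followed in RNA-seq of mouse gastrocnemius muscle. They were taken by name, as 10 of the 22252 gene names in the count files. The genes encode the hormones and secreted factors leptin (Lep), adipsin (Cfd), adiponectin (Adipoq) and resistin (Retn), the lipid droplet proteins perilipin 1 (Plin1) and CIDEC (Cidec), the fatty acid carrier FABP4 (Fabp4), the β3-adrenergic receptor (Adrb3), and the enzymes carbonic anhydrase 3 (Car3) and cytochrome P450 2E1 (Cyp2e1). The question was which of them differed between lean mice and leptin-deficient ob/ob mice in a way that other adipocyte genes did not share, and which moved together as the fat content of a muscle sample would.

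The mice were C57BL/6J males aged 7 weeks, in 4 groups. All of them carried floxed alleles of Nr3c1, the gene of the glucocorticoid receptor (GR), on both chromosomes. Lean GR fl/fl mice had no Cre and 2 wild-type Lep alleles. Lean GR-mKO mice had in addition 1 copy of a Cre transgene driven by Acta1, which removes functional GR from myofibres. The same 2 genotypes were also made on the ob/ob background, in which both Lep alleles are the ob allele. The paper describes the ob/ob mice as eating more, heavier, with more white fat, and with hyperinsulinemia that was milder in GR-mKO mice. Below, a change with leptin deficiency means the difference between ob/ob and lean mice. In it these traits and the loss of leptin itself cannot be told apart. GR fl/fl mice without Cre are called controls here, giving the groups lean control, lean GR-mKO, ob/ob control and ob/ob GR-mKO. Since Cre acted in myofibres, adipocytes lying between them were not the target of the deletion. Each group was 1 library made from the pooled RNA of 3 mice, so no difference could be held against the spread between animals and no p-value is given. Intervals are 95% intervals for counting error only, by the Wilson method for levels and the exact binomial method for ratios of levels.

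White adipocytes store triglyceride in a single large droplet coated by perilipin 1 and CIDEC, and release hormones into the blood. Leptin reports the size of the fat stores to the brain and restrains feeding. The ob allele yields no functional hormone, but its transcript can still be made and counted. Adipsin is complement factor D, the protease that starts the amplification loop of the alternative complement pathway, and adiponectin and resistin act on insulin sensitivity in opposite directions. In muscle, adipocytes lie between the fibres and fascicles. Several of the 10 genes are not particular to adipocytes: Fabp4 is also made by capillary endothelium and macrophages, Cyp2e1 by liver, and Car3 by slow muscle fibres. In bulk RNA of a muscle, fewer adipocytes and less RNA per adipocyte cannot be told apart.

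Between 19897754 and 20959781 expected counts made up each library, and 14206 genes had a count above 0 in all 4 libraries, the 10 adipocyte genes among them. Levels are CPM, a gene's count scaled to a fixed total of 1000000, over these 14206 genes, on which 3 counts correspond to between 0.143 and 0.151 CPM. Nr3c1, counted over the whole transcript and not over the deleted exon, was at 125 CPM in lean control, 67.1 in lean GR-mKO, 102 in ob/ob control and 39.2 in ob/ob GR-mKO muscle, lower in both GR-mKO libraries than in their controls. A difference between 2 libraries was called if it reached 2-fold and if either library held 50 counts or more. On this scale the median gene had a log2 change from lean to ob/ob muscle of -0.11 in control and -0.21 in GR-mKO mice, and one within 0.01 of 0 after scaling with TMM or DESeq2 factors, so small changes have to be read against that shift. Acta1, the skeletal muscle actin, was at 39180 to 43789 CPM. Ucp1, which defines brown fat, was at 0 to 0.145 CPM, the level of 3 counts.

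The sequences before the transcription start sites of Lep and Cfd are shown because these genes changed in opposite directions with leptin deficiency. Those of Cyp2e1, which changed like Cfd, and of Adipoq, whose lean and ob/ob levels overlapped, are set beside them. They are 250 bases each, on the plus strand of GRCm38.p6, from RefSeq, at chr6:29059971-29060220 for Lep, chr10:79890603-79890852 for Cfd, chr7:140763569-140763818 for Cyp2e1 and chr16:23146286-23146535 for Adipoq. Capitals mark matches on either strand to 1 of 6 short motifs.
Lep: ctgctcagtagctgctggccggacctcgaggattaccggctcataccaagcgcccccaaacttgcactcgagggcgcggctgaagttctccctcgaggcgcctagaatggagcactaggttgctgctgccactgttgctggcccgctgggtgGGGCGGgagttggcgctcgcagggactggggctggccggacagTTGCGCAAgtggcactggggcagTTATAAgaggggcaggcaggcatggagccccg
Cfd: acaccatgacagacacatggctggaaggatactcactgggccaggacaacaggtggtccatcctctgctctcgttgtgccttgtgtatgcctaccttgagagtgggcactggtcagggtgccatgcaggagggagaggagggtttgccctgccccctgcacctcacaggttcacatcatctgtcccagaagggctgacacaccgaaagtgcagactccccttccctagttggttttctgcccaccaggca
Cyp2e1: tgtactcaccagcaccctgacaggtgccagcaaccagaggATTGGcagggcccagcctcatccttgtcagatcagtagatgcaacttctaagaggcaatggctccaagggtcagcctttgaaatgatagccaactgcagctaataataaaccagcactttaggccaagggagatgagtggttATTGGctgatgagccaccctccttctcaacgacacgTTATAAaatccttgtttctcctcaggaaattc
Adipoq: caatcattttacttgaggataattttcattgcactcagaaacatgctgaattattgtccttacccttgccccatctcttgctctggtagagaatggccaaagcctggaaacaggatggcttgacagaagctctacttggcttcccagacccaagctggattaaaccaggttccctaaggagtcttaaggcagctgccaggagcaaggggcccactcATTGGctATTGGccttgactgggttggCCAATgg

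The motifs were searched in windows of 300 bases, the 250 printed and the 50 after the start. They were TATAA, found in 24.9% of 32851 promoter windows of the same length, CCAAT (37.4%), GGGCGG (35.7%), TTGCGCAA, a palindrome bound by C/EBP factors (0.183%), AGGTCA (16.3%) and AGAACA (19%). The Lep window held GGGCGG beginning 98 bases before the start, TTGCGCAA at 55 bases and TATAA at 31 bases, where the overlapping match on the other strand begins at 32 bases. The Cyp2e1 window held CCAAT on the minus strand at 210 and 68 bases and TATAA in the same position as Lep. The Adipoq window held CCAAT at 34, 27 and 7 bases, and the Cfd window matched none of these letters. AGGTCA and AGAACA, the short core sites of nuclear receptors, were matched in none of these windows. Windows for Retn, Plin1 and Cidec were also in the table and matched no motif, and Fabp4, Car3 and Adrb3 were not searched. A match is a description of letters, and no binding was measured.

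Leptin deficiency went with more leptin transcript and far less adipsin transcript. Lep (chr6:29060220-29073877, plus strand, 3 exons in the listed transcript) was at 14.2 CPM (12.7 to 15.9) in lean control, 5.90 (4.91 to 7.06) in lean GR-mKO, 69.7 (66.2 to 73.3) in ob/ob control and 42.1 (39.4 to 45.0) in ob/ob GR-mKO muscle. Both ob/ob libraries lay above both lean ones, and no neighbouring intervals in this order overlapped. Lep was 4.91-fold higher in ob/ob than lean control muscle (4.33 to 5.58) and 7.15-fold higher in ob/ob than lean GR-mKO muscle (5.89 to 8.75). Among genes that reached 50 counts in either library, 22 of 11375 had a larger increase in controls and 3 of 11405 in GR-mKO mice (Adamts8, D16Ertd472e and Igfn1).

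Cfd (chr10:79890853-79892655, plus strand, 5 exons) was at 268 CPM (261 to 275) in lean control, 145 (140 to 150.2) in lean GR-mKO, 14.4 (12.9 to 16.1) in ob/ob control and 8.92 (7.75 to 10.3) in ob/ob GR-mKO muscle. The lean libraries were high and the ob/ob libraries low, with no overlap. Cfd was 18.5-fold lower in ob/ob than lean control muscle (16.5 to 20.9) and 16.2-fold lower in ob/ob than lean GR-mKO muscle (14.0 to 18.9). A larger decrease was seen for 1 of 11375 genes in controls (Irgc1) and for 3 of 11405 in GR-mKO mice (Mmp9, Tmem255b and Wdr81). Per kilobase of transcript, Cfd was above Lep in lean muscle, at 290 against 4.35 CPM in control and 157 against 1.81 CPM in GR-mKO mice, and below it in ob/ob muscle, at 15.7 against 21.4 CPM and 9.67 against 12.9 CPM. Not divided by length, there were 18.9 Cfd counts per Lep count in lean control and 24.6 in lean GR-mKO muscle, against 0.207 in ob/ob control and 0.212 in ob/ob GR-mKO muscle. The latter are 4.82 and 4.72 Lep counts per Cfd count. In this ratio of 2 genes from the same library, library size cancels.

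**Figure D1:**
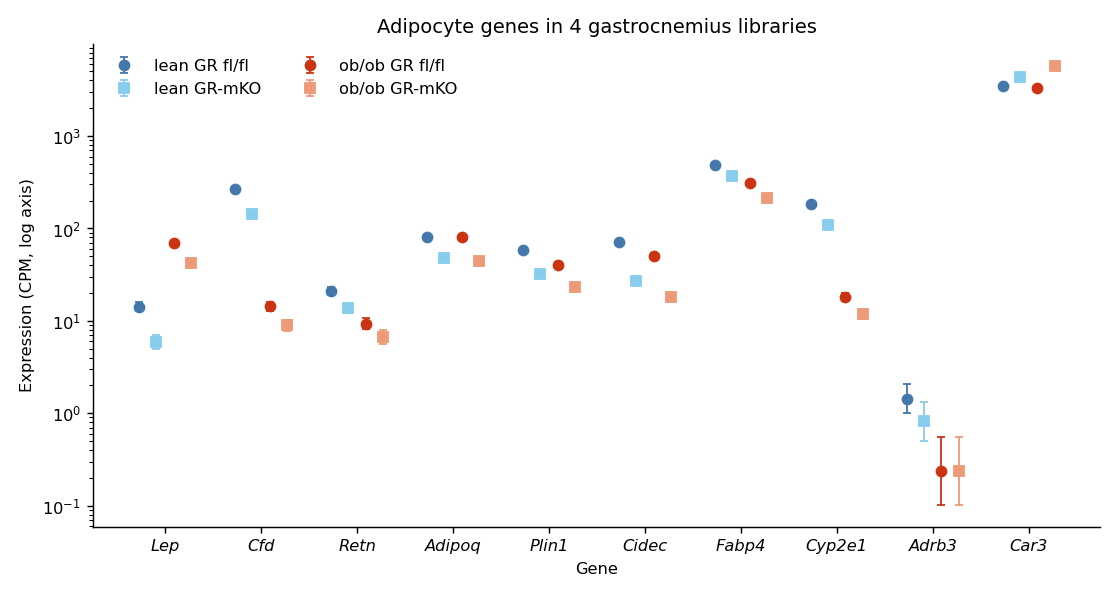
Expression of the 10 adipocyte genes in CPM on a log axis, with 1 point per library (controls are marked GR fl/fl) and bars for the 95% Wilson interval of counting error, which is smaller than the point for most genes. Lep was higher in both ob/ob libraries, Cfd and Cyp2e1 were lower in both, and Adipoq was paired by genotype at 81.6 and 80.5 CPM in control and 48.4 and 44.4 CPM in GR-mKO muscle.

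Cyp2e1, a microsomal oxidase of ethanol and fatty acids, followed Cfd. Its level was 183 CPM in lean control, 110 in lean GR-mKO, 18.0 in ob/ob control and 11.9 in ob/ob GR-mKO muscle (chr7:140763739-140774987, plus strand, 9 exons). The lean libraries were again both above the ob/ob ones. Cyp2e1 was 10.1-fold lower in ob/ob control (9.10 to 11.3) and 9.25-fold lower in ob/ob GR-mKO muscle (8.10 to 10.6) than in the lean library of the same genotype, and in each genotype 11 genes decreased more. Cyp2e1 is also abundant in liver. The hepatocyte marker Alb was at 4.64, 11.1, 4.63 and 21.5 CPM in the 4 libraries in the same order. Over all 5 hepatocyte markers, the summed level was 7.08 to 14.5 CPM in lean and 5.43 to 26.8 CPM in ob/ob libraries, and the part of such RNA in the Cyp2e1 level was not tested.

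Resistin, named for its action against insulin, showed a smaller decrease. Retn (chr8:3655770-3660110, plus strand, 5 exons) was at 21 CPM in lean control, 13.7 in lean GR-mKO, 9.35 in ob/ob control and 6.70 in ob/ob GR-mKO muscle. Its level was 2.24-fold lower in ob/ob control (1.89 to 2.66) and 2.04-fold lower in ob/ob GR-mKO muscle (1.66 to 2.52). The latter stood just past the threshold, and after scaling with TMM factors its log2 change moved from -1.03 to -0.82 and the call was lost. DESeq2 size factors and upper quartile scaling lost this call too. Adrb3, the receptor through which catecholamines drive lipolysis in rodent fat, had 29.7, 16.2, 5.0 and 4.99 counts in the 4 libraries (chr8:27225776-27250616, minus strand, overlapping an antisense gene). These are 1.43, 0.815, 0.239 and 0.239 CPM, below the count needed for a call. Adrb3 was 6.00-fold lower in ob/ob control (2.33 to 20) and 3.42-fold lower in ob/ob GR-mKO muscle (1.18 to 11.8), and the intervals of neighbouring levels overlapped throughout.

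Adiponectin showed no such change. Adipoq (chr16:23146536-23158028, plus strand, 3 exons) was at 81.6 CPM (77.8 to 85.6) in lean and 80.5 (76.7 to 84.4) in ob/ob control muscle, and at 48.4 (45.5 to 51.6) in lean and 44.4 (41.7 to 47.4) in ob/ob GR-mKO muscle. The lean and ob/ob intervals overlapped within each genotype. The log2 difference between ob/ob and lean muscle was -0.02 (-0.12 to 0.08) in control and -0.12 (-0.26 to 0.01) in GR-mKO mice. Against the median gene these differences were 0.09 and 0.08, so their sign depended on the scaling.

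The droplet genes lay between. Plin1 (chr7:79720218-79732903, minus strand, 9 exons), whose protein guards the stored triglyceride from lipases, was at 58.4 CPM in lean control, 32.4 in lean GR-mKO, 40.4 in ob/ob control and 23.0 in ob/ob GR-mKO muscle. Cidec (chr6:113424634-113435760, minus strand, 6 exons), which moves lipid between droplets so that they fuse, was at 70.6, 26.9, 50.8 and 18.3 CPM in the same order. Both were lower in ob/ob than lean muscle, but by less than the 2-fold threshold. Plin1 was 1.44-fold lower in control (1.32 to 1.58) and 1.40-fold lower in GR-mKO mice (1.25 to 1.58), and Cidec was 1.39-fold (1.28 to 1.51) and 1.47-fold lower (1.29 to 1.68).

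With leptin deficiency, 1 of the 10 genes (Lep) was called higher and 3 (Cfd, Retn and Cyp2e1) were called lower by CPM, the same genes in both genotypes. These are 10% and 30% of the set. In GR-mKO mice the call of Retn was lost with TMM, DESeq2 and upper quartile scaling, as given above. Of all genes tested, 1.51% were called higher and 2.7% lower in controls, and 1.32% higher and 6.08% lower in GR-mKO mice. These shares rest on CPM, and with TMM or DESeq2 factors more genes were called higher and fewer lower in GR-mKO mice. The median change of the 10 genes was -0.59 (log2) in control and -0.69 in GR-mKO mice, beside -0.11 and -0.21 for all genes tested. The 2 contrasts share no library. By CPM their log2 values were close for Cfd (-4.21 and -4.02), Cyp2e1 (-3.34 and -3.21) and Plin1 (-0.53 and -0.49). For Lep they were 2.30 and 2.84, and for Car3 they differed in sign (-0.07 and 0.40). The difference between genotypes in these changes could not be tested with 1 library per group.

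**Figure D2:**
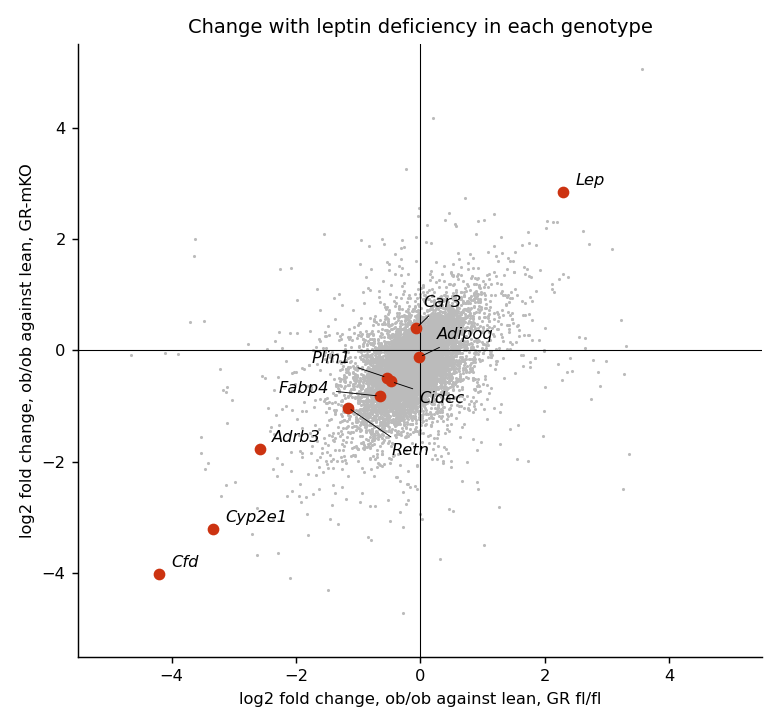
log2 change from lean to ob/ob muscle in controls (x axis) and GR-mKO mice (y axis) for the 11599 genes that reached 50 counts in any library (grey), with the 10 adipocyte genes in red. Cfd and Cyp2e1 lie at the far lower left and Lep at the upper right, while Adipoq, Plin1 and Cidec lie within 1 log2 unit of the origin in both genotypes. Adrb3 is drawn although it has fewer than 50 counts.

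A general shift in fat content would move all adipocyte transcripts together. Adipoq, Plin1 and Cidec, which are themselves in the set, were summed as a fat reference. None of them was called with leptin deficiency, so how far other genes depart from the reference depends in part on this choice. The reference was at 211 CPM (204 to 217) in lean control, 108 (103 to 112) in lean GR-mKO, 172 (166 to 177) in ob/ob control and 85.8 (81.9 to 89.9) in ob/ob GR-mKO muscle. The GR-mKO libraries were both below the control libraries. The reference was 1.23-fold lower (1.17 to 1.28) in ob/ob than lean control muscle and 1.26-fold lower (1.18 to 1.34) in ob/ob than lean GR-mKO muscle. Between genotypes it was 1.96-fold lower (1.86 to 2.06) in GR-mKO than control muscle of lean mice and 2.0-fold lower (1.89 to 2.12) in ob/ob mice. The 3 genes did not keep a fixed proportion. Adipoq made up 38.8% of the reference counts in lean control, 45.0% in lean GR-mKO, 46.9% in ob/ob control and 51.8% in ob/ob GR-mKO muscle, and Cidec made up 33.5%, 25.0%, 29.6% and 21.3%.

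Set against this reference, Lep still differed between backgrounds. There were 6.73 Lep counts per 100 reference counts (5.97 to 7.59) in lean control and 5.47 (4.5 to 6.59) in lean GR-mKO muscle, against 40.6 (38.1 to 43.1) in ob/ob control and 49.1 (45.2 to 53.2) in ob/ob GR-mKO muscle. The 2 lean values overlapped in their intervals, and both ob/ob values were several times higher. The relative increase was 6.03-fold in control and 8.97-fold in GR-mKO mice. Cfd stood at 127 per 100 reference counts (122 to 132) in lean control and 134 (127 to 142) in lean GR-mKO muscle, against 8.41 (7.45 to 9.45) in ob/ob control and 10.4 (8.91 to 12.1) in ob/ob GR-mKO muscle. The relative decrease was 15.1-fold in control and 12.9-fold in GR-mKO mice. Cyp2e1 had 86.7, 102, 10.5 and 13.9 counts per 100 reference counts in the 4 libraries in that order, an 8.25-fold and a 7.36-fold relative decrease. For these 3 genes the change with leptin deficiency was larger than that of the fat reference in both genotypes.

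Retn and Fabp4 differed less from the reference. Retn had 9.96, 12.7, 5.45 and 7.81 counts per 100 reference counts, a 1.83-fold relative decrease in control and a 1.62-fold one in GR-mKO mice. Fabp4 had 230, 347, 179 and 246 counts per 100 reference counts, a 1.28-fold and a 1.41-fold relative decrease. The Adrb3 values of 0.680, 0.757, 0.139 and 0.278 rest on at most 29.7 counts, and in GR-mKO mice the interval of their relative log2 change, -1.44 (-2.90 to 0.01), included 0. Replacing the reference by Adipoq, Plin1 or Cidec alone, or by 9 adipocyte genes outside the set, gave relative log2 changes of 2.21 to 2.83 for Lep and -4.30 to -3.68 for Cfd in controls, and of 2.91 to 3.40 and -3.95 to -3.46 in GR-mKO mice. For Retn these references gave -1.26 to -0.63 in controls and -0.95 to -0.47 in GR-mKO mice. For Fabp4 they gave -0.74 to -0.12 and -0.75 to -0.26, so the size of its relative decrease depended on the reference.

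**Figure D3:**
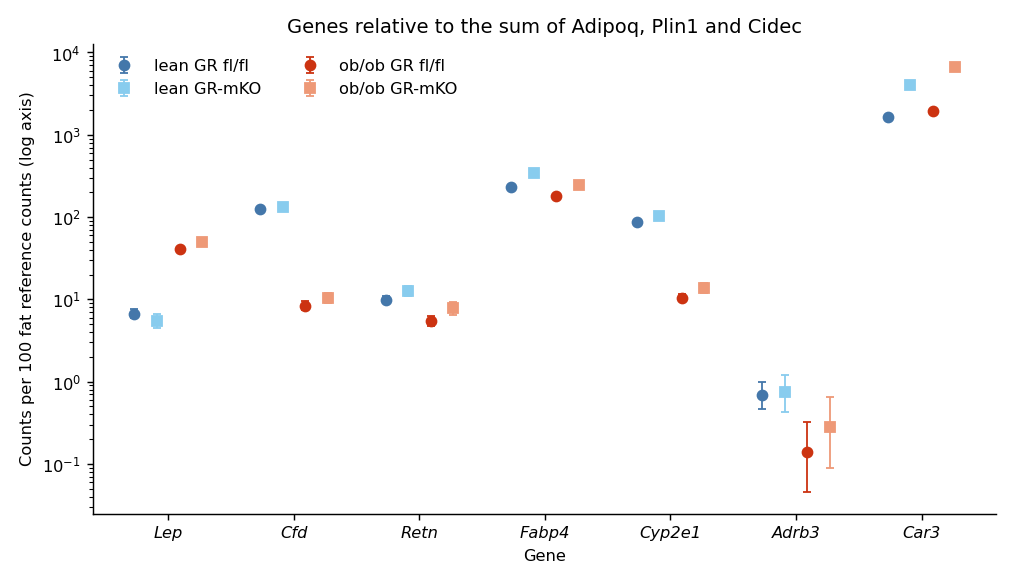
Counts per 100 counts of the fat reference (Adipoq, Plin1 and Cidec summed) for the other 7 genes on a log axis, with 1 point per library and bars for the 95% interval of counting error. The lean and ob/ob libraries remained apart for Lep, Cfd and Cyp2e1. The 2 genotypes within a background lay closest for Cfd in lean muscle, at 127 and 134, and farthest apart for Car3 in ob/ob muscle, at 1941 and 6654.

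Between genotypes, all of the 10 genes but Car3 were lower in GR-mKO muscle of lean mice, and all but Car3 and Adrb3 in ob/ob mice, by 1.30-fold to 2.78-fold apart from Adrb3. In lean mice 2 of the 10 (Lep and Cidec) were called lower and 0 higher in GR-mKO than control muscle, where 1.14% of all genes were called lower and 1.3% higher. In ob/ob mice 1 (Cidec) was called lower and 0 higher, where 1.83% of all genes were called lower and 1.3% higher. Cidec was 2.62-fold lower (2.37 to 2.90) in lean and 2.78-fold lower (2.47 to 3.13) in ob/ob GR-mKO muscle, and Lep 2.40-fold lower (1.94 to 3.01) in lean and 1.65-fold lower (1.52 to 1.80) in ob/ob GR-mKO muscle. Below the threshold, Cfd was 1.85-fold and 1.62-fold lower, Plin1 1.80-fold and 1.75-fold, Adipoq 1.69-fold and 1.81-fold, Cyp2e1 1.66-fold and 1.52-fold, Retn 1.53-fold and 1.39-fold, and Fabp4 1.30-fold and 1.46-fold lower in lean and ob/ob mice. Adrb3 was 1.76-fold lower (0.949 to 3.53) in lean GR-mKO muscle and at 0.239 CPM in both ob/ob libraries. The median change of the 10 genes was -0.78 (log2) in lean and -0.65 in ob/ob mice, beside 0.05 and -0.04 for all genes tested.

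Set against the fat reference, the genotype differences of Lep and Cfd depended on the genes taken as reference. With the sum of 3 genes, the relative log2 change of Lep was -0.30 (-0.62 to 0.02) in lean and 0.28 (0.13 to 0.42) in ob/ob mice, and that of Cfd was 0.08 (-0.02 to 0.18) and 0.31 (0.03 to 0.58). With Cidec alone the values were 0.13 and 0.75 for Lep and 0.50 and 0.78 for Cfd, and with the 9 other adipocyte genes -0.81 and -0.10 for Lep and -0.43 and -0.071 for Cfd. Relative to the sum of 3 genes, Fabp4 was higher in GR-mKO muscle by 0.59 in lean and 0.46 in ob/ob mice, Retn by 0.35 and 0.52, and Cyp2e1 by 0.23 and 0.40, with intervals that did not include 0. These values too depended on the reference. With the 9 other adipocyte genes they were 0.083 and 0.081 for Fabp4, -0.16 and 0.14 for Retn, and -0.27 and 0.022 for Cyp2e1, so that in lean mice the sign turned for Retn and Cyp2e1. With 3 pooled mice per library, the amount of fat left on each muscle at dissection and the genotype cannot be told apart.

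**Figure D4:**
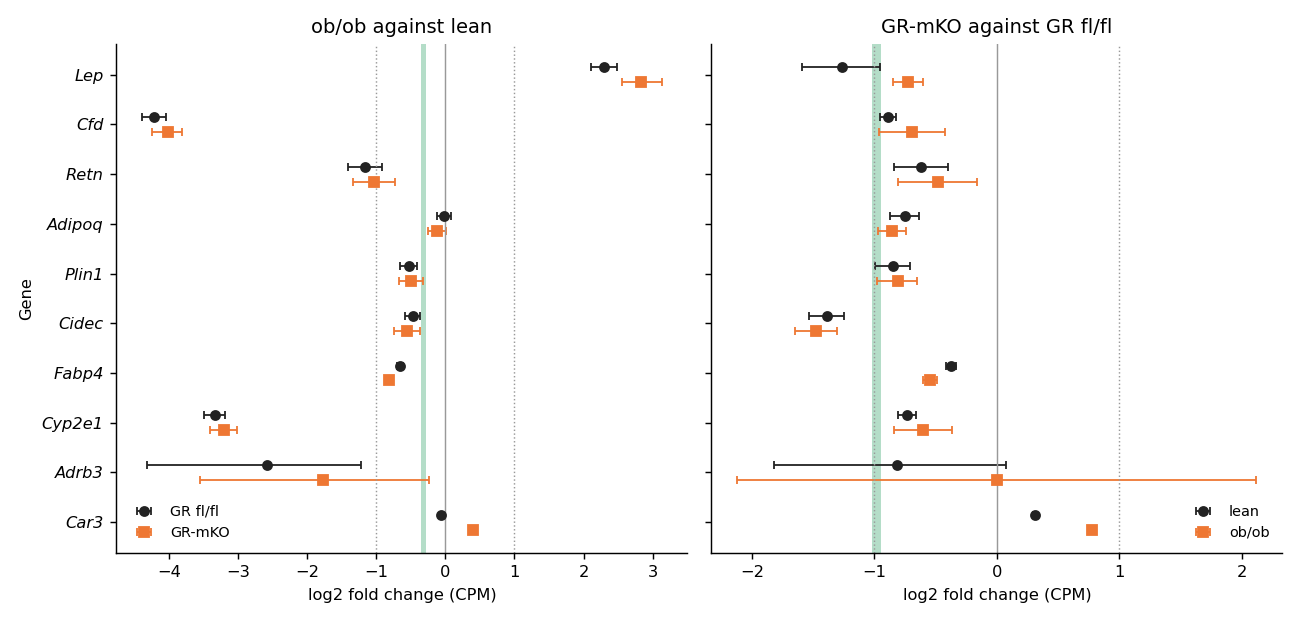
log2 change of the 10 genes from lean to ob/ob muscle (left) and from control to GR-mKO muscle (right), with bars for the exact binomial 95% interval of counting error, dotted lines at the 2-fold threshold and a green band at the change of the fat reference in the 2 contrasts of each panel. On the left Lep, Cfd and Cyp2e1 lie far from the band at -0.29 and -0.33, and on the right the band lies at -0.97 and -1.0, with every gene but Car3 and Adrb3 below 0 in both backgrounds, and Car3 above 0.

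Adipocyte genes outside the set were compared with it. Of 9 such genes, 0 were called higher in any of the 4 contrasts, and 1 was called lower with leptin deficiency in controls (Adig, an adipocyte membrane protein), 2 in GR-mKO mice (Adig and the glycerol channel Aqp7), and 0 and 1 (Adig) between genotypes in lean and ob/ob mice. Adig was at 6.42, 3.82, 2.49 and 1.11 CPM in lean control, lean GR-mKO, ob/ob control and ob/ob GR-mKO muscle. Pparg, the master regulator of adipocyte differentiation, was at 4.06, 5.21, 6.24 and 5.16 CPM, and its partner Cebpa at 50.2, 39.7, 33.2 and 22.4 CPM. The 9 genes were Adig, Aqp7, Pparg, Cebpa, Dgat2, Lipe, Slc7a10, Acvr1c and Trarg1. They summed to 282, 205, 300 and 195 CPM, with both GR-mKO libraries below both control libraries, as for Adipoq. Dgat2, at 103, 73.0, 155 and 98.2 CPM, and Lipe, at 81.7, 53.0, 60.9 and 42.6 CPM, made up most of this sum. The sum was higher in ob/ob than lean controls, although 6 of the 9 genes were lower there by CPM. Their median log2 changes were -0.16 and -0.31 with leptin deficiency and -0.50 and -0.66 between genotypes.

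Fabp4 (chr3:10204088-10208576, minus strand, 4 exons) was at 484 CPM in lean control, 374 in lean GR-mKO, 308 in ob/ob control and 211 in ob/ob GR-mKO muscle. It was 1.57-fold lower (1.52 to 1.62) in ob/ob control and 1.77-fold lower (1.70 to 1.83) in ob/ob GR-mKO muscle, below the threshold. Per kilobase of transcript its level was 236 to 541 CPM, against 34.4 to 63.2 CPM for Adipoq. Markers of the other cell types that make it moved as well. The 7 endothelial markers, which include Cdh5 and Pecam1, summed to 571, 657, 434 and 389 CPM in the same order, and 7 of 7 were lower in ob/ob muscle in both genotypes, 0 called in control and 1 (Tek) in GR-mKO mice, a call lost with TMM and DESeq2 factors. The 7 macrophage markers summed to 515, 653, 334 and 239 CPM and were also 7 of 7 lower in ob/ob muscle, with 0 called in control and 6 in GR-mKO mice. Between genotypes Fabp4 was 1.30-fold lower in lean GR-mKO muscle, where both sums were higher than in controls, and 1.46-fold lower in ob/ob GR-mKO muscle, where both sums were lower. The part of these cells in the Fabp4 level was not tested.

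Car3 did not follow the fat reference. Car3 (chr3:14863512-14872523, plus strand, 7 exons) was at 3497 CPM in lean control, 4339 in lean GR-mKO, 3333 in ob/ob control and 5708 in ob/ob GR-mKO muscle. Per kilobase of transcript this was 1985 to 3399 CPM, above every other gene of the set. It was the only gene of the set that was higher in both GR-mKO libraries, 1.24-fold (1.23 to 1.25) in lean and 1.71-fold (1.70 to 1.73) in ob/ob mice, while the fat reference was 1.96-fold and 2.0-fold lower. Between lean and ob/ob muscle it was 1.05-fold lower (1.04 to 1.06) in controls by CPM, a sign that turned with TMM, DESeq2 and upper quartile scaling, and 1.32-fold higher (1.30 to 1.33) in GR-mKO mice. Car3 is an abundant enzyme of slow fibres. The 9 slow fibre genes summed to 520, 693, 1154 and 1648 CPM, with both GR-mKO libraries above their controls, as for Car3. They were called higher in ob/ob muscle for 6 of 9 genes in control and 7 of 9 in GR-mKO mice, and for 1 of 9 in GR-mKO muscle of each background (Tpm3 in lean and Atp2a2 in ob/ob mice). Myh7, the slow myosin heavy chain, was at 63.1, 84.8, 276 and 419 CPM. The slow fibre sum and Car3 did not run together in every contrast, since the sum was 2.22 times its lean control level in ob/ob control muscle and Car3 0.953 times. The part of fibre type in the Car3 level was not tested.

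**Figure D5:**
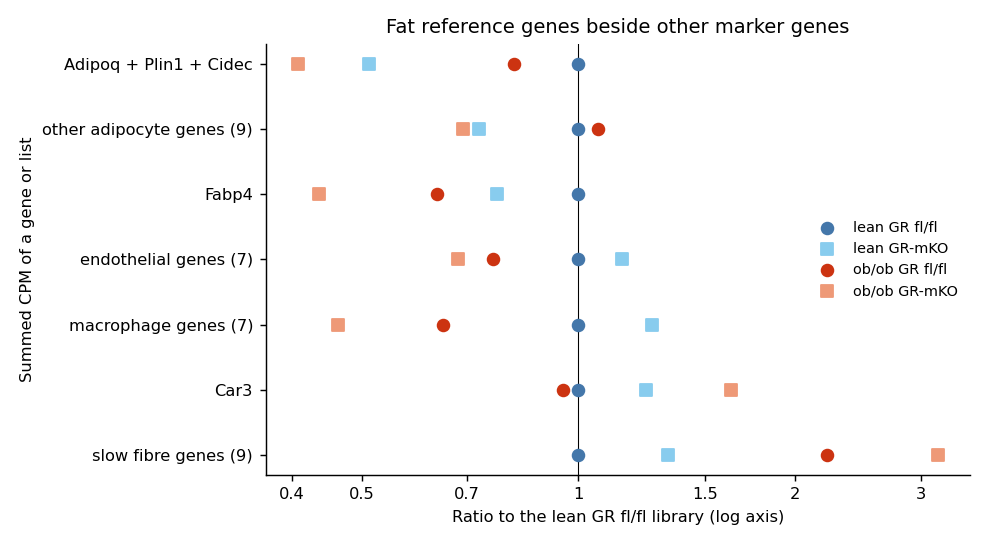
Summed CPM of the fat reference, 9 other adipocyte genes, Fabp4, 7 endothelial, 7 macrophage and 9 slow fibre markers and Car3 as a ratio to the lean control library on a log axis, with 1 point per library (controls are marked GR fl/fl). Both adipocyte sums are lower in the GR-mKO libraries (0.511 and 0.407 for the reference). Within each background, Car3 and the slow fibre sum are higher in the GR-mKO than the control library, but the slow fibre sum in ob/ob controls (2.22) is above that in lean GR-mKO muscle (1.33).

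The pathways in which these proteins act were read from lists of their genes. Of 7 genes of leptin receptor signalling, among them the kinase Jak2 and the adaptor Sh2b1, 0 were called in either direction in the 4 contrasts. Jak2 was at 60.4, 42, 41 and 32.2 CPM in lean control, lean GR-mKO, ob/ob control and ob/ob GR-mKO muscle, and Lepr, the receptor itself, at 5.90, 5.07, 6.58 and 3.56 CPM. Of 4 adiponectin receptor and binding genes, 0 were called in any contrast. Adipor1, the receptor that predominates in muscle, was at 338, 307, 328 and 334 CPM, and Cdh13, which encodes the adiponectin-binding T-cadherin, at 128, 161, 151 and 189 CPM.

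Adipsin cleaves complement factor B. Of 10 genes of the alternative pathway other than Cfd, 7 had counts in all libraries. With leptin deficiency, 2.7% of all genes were called lower by CPM in controls and 6.08% in GR-mKO mice. Of these 7 genes, 2 were called lower in controls (C3 and properdin, Cfp), and 6 in GR-mKO mice, with 0 called higher. With TMM or DESeq2 factors the calls were 1 (C3) in controls and 3 (C3, Cfp and C3ar1) in GR-mKO mice. C3 was at 230, 237, 102 and 49.4 CPM in the 4 libraries in the order above, and Cfp, which stabilizes the C3 convertase, at 22.2, 26.5, 10.7 and 7.17 CPM. The substrate Cfb was at 8.48, 10.9 and 9.22 CPM and had 0 counts in the ob/ob GR-mKO library, where 3 counts would be 0.143 CPM. C5ar1, at 5.26, 6.53 and 4.66 CPM in the other libraries, also had 0 counts there. Both are therefore outside the 7. Between genotypes of lean mice, 7 of 7 were higher in GR-mKO muscle by CPM and 6 with TMM or DESeq2 factors, with 0 called, where Cfd was 1.85-fold lower. In ob/ob mice 6 of 7 were lower in GR-mKO muscle by CPM and with TMM or DESeq2 factors, where Cfd was 1.62-fold lower. Of them, 1 (C3, 2.07-fold by CPM) was called lower with each of these scalings. The decrease of these genes with leptin deficiency went with that of the macrophage markers given above, whose part was not tested.

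Among relatives of the other genes, Retnla, a resistin-like factor of macrophages, was at 53.0, 61.7, 20.5 and 10.5 CPM and was called lower in ob/ob muscle in both genotypes. Of 10 carbonic anhydrase genes other than Car3 with counts in all libraries, 0 were called in controls with leptin deficiency and 1 (Car7) was called lower in GR-mKO mice. Between genotypes 0 were called in lean mice, or 1 (Car14, lower) with TMM or DESeq2 factors, while in ob/ob mice Car14 was called lower in GR-mKO muscle, 3.41-fold, and Car2 higher, 2.22-fold. Of 13 lipid droplet and lipolysis genes that muscle fibres also use, 1 was called higher with leptin deficiency in controls (Plin5, the perilipin of oxidative tissues, at 5.25 and 15.4 CPM) and 0 in GR-mKO mice, or 1 there (Plin4) with TMM or DESeq2 factors. Plin5 was at 5.68 CPM in lean GR-mKO and 7.70 CPM in ob/ob GR-mKO muscle. Between genotypes 0 of the 13 were called in lean mice, and in ob/ob mice 2 were called lower in GR-mKO muscle, Plin3 (3.05-fold) and Plin5 (2.0-fold), of which the call of Plin5 was lost with TMM and DESeq2 factors.

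The genes with the most similar profiles over the 4 libraries were sought for Lep, Cfd and Adipoq among 11599 genes, by the Euclidean distance between log2 CPM values centred on their mean. For Lep they were Adamts8 (distance 0.43), Npr3 (0.64) and Sh3rf2 (0.78). Npr3, the natriuretic peptide clearance receptor, was at 8.24, 6.14, 50.6 and 27.0 CPM in lean control, lean GR-mKO, ob/ob control and ob/ob GR-mKO muscle. For Cfd they were Cyp2e1 (0.85), Pla2g2d (1.17) and Ces1f (1.23), so the nearest gene was itself in the set and the others lay farther away than those of Lep. Ces1f, a carboxylesterase, was at 7.95, 3.78, 0.860 and 0.621 CPM. For Adipoq they were Rasl11b (0.05), Lpin1 (0.12) and Slc7a10 (0.13). Slc7a10, an amino acid transporter of white adipocytes, was at 5.18, 2.83, 4.62 and 2.79 CPM, and Lpin1, a phosphatidate phosphatase of fat and muscle, at 372, 243, 362 and 204 CPM. With 4 points per gene, these distances describe the 4 libraries only.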

How the data were processed

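The authors extracted total RNA from gastrocnemius muscle, pooled that of 3 mice per group, and sequenced 100-bp paired-end reads. Salmon 1.2.1 was run by the authors on protein-coding GENCODE transcripts (mm10), followed by tximport in R 3.5.0 for gene totals, and the larger entry was retained for a repeated name. What was deposited are expected counts of 22252 named genes, scaled by transcript length but not normalized between libraries.

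Levels were CPM over 14206 genes, those detected in every library. A call needed a 2-fold change and 50 counts or more in either library compared. Levels per kilobase used the length of the transcript listed with each gene. Wilson 95% intervals for levels, exact binomial intervals for ratios of levels, and intervals from log-normal counting error for changes relative to the fat reference were computed in Python 3.11.15 with scipy 1.17.1, from rounded counts, and cover counting error only. Reads without molecular identifiers are not independent molecules. With 1 library per group no test was made. The script was tested on simulated data. Scaling factors from edgeR 4.0.16 and DESeq2 1.42.0 (R 4.3.3), upper quartile scaling, libraries without the 50 most abundant genes, every gene name in the library size, other thresholds, and other fat references were alternatives.

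The 10 genes and the lists were chosen with earlier results of these data known. Named beside them were Nr3c1, for each list the largest changes between ob/ob and lean control muscle among genes with at least 50 counts or genes defining a cell type, and the 3 nearest profiles of Lep, Cfd and Adipoq. Lepr, Adipor1 and Cfb were added for their roles, and genes that make up a count of 5 or fewer are named although they were chosen after their values were seen. Coordinates and exons are of GENCODE M21 on GRCm38, where all 22252 listed transcripts were found. Promoter sequences are from RefSeq on GRCm38.p6, in which 7 of the 10 genes were matched. Figures were drawn with matplotlib 3.10.9.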

Additional observations from a re-analysis of the deposited data

Results flagged for a closer look

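Car3 moved in opposite directions with leptin deficiency in the 2 genotypes, by a log2 value of -0.07 in controls and 0.40 in GR-mKO mice, a difference of 0.46 that was not tested. The direction in controls rests on the scaling, since it was 0.04 with TMM factors and 0.05 with DESeq2 size factors, whereas in GR-mKO mice the value lay between 0.40 and 0.61 under the 7 alternatives.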

How the results depend on the processing

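The changes of Lep, Cfd and Cyp2e1 with leptin deficiency kept their direction and their call under all scalings and filters tried. Lep ranged from 2.30 to 2.41 (log2) in controls and 2.83 to 3.05 in GR-mKO mice, and Cfd from -4.21 to -4.09 and -4.02 to -3.81. Across the alternatives, 55 summary values moved and 165 did not. No paired analysis was possible because each group has 1 library, and no library could be left out for the same reason.

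The median change of the 10 genes between ob/ob and lean control muscle was -0.48 with TMM factors and -0.47 with DESeq2 size factors. In GR-mKO mice, calls over all genes were 320 higher and 508 lower with TMM factors, 328 higher and 496 lower with DESeq2 size factors, and 292 higher with upper quartile scaling. A 1.5-fold threshold called 605 genes higher and 1394 lower with leptin deficiency in controls and 576 and 2362 in GR-mKO mice, and 637 and 452 between genotypes in lean and 551 and 944 in ob/ob mice. It called 7 of the 10 genes lower in lean GR-mKO muscle, and 1 higher and 6 lower in ob/ob GR-mKO muscle. A 3-fold threshold gave 68 and 112, 56 and 208, 51 and 56, and 58 and 66 in the same order, with 0 of the 10 genes lower in GR-mKO muscle of either background. With no count minimum the numbers were 482 and 993, 484 and 1539, 586 and 506, and 573 and 710.

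Relative to other fat references, the change of Lep with leptin deficiency in controls was 2.32 (log2) with Adipoq alone, 2.83 with Plin1 alone and 2.21 with the 9 other adipocyte genes. That of Cfd was -4.19, -3.68 and -4.30, and -3.74 with Cidec alone, and -3.95 with the 9 genes in GR-mKO mice. Between genotypes of lean mice, Lep was at 0.13 with Cidec alone and -0.81 with the 9 genes, and Cfd at -0.13 with Adipoq, -0.035 with Plin1, 0.50 with Cidec and -0.43 with the 9 genes. In ob/ob mice, Lep was at 0.085 with Plin1, 0.75 with Cidec and -0.10 with the 9 genes, and Cfd at 0.78 with Cidec and -0.071 with the 9 genes. The cause of these shifts was not tested. The calls of the gene lists with TMM and DESeq2 factors, given beside each list, were an alternative chosen after seeing the data. Adrb3, with at most 29.7 counts, was limited by depth.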

Other observations

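Genes of fat synthesis summed to 1352 CPM in lean control, 933 in lean GR-mKO, 1562 in ob/ob control and 1465 in ob/ob GR-mKO muscle, and 0 of them were called between genotypes in either background. Of these 7 lipogenic genes, 1 was called higher with leptin deficiency in both genotypes, the fatty acid elongase Elovl6, at 5.07 CPM in lean control, 5.91 in lean GR-mKO, 11.5 in ob/ob control and 15.7 in ob/ob GR-mKO muscle. With TMM or DESeq2 factors Scd1, a fatty acid desaturase, was called higher as well in GR-mKO mice. Thrsp, a lipogenic nuclear factor, was called lower in controls, at 54.2 and 23.6 CPM, and was at 38.4 and 30.4 CPM in GR-mKO mice. Cidea, the relative of Cidec found in brown fat, was at 3.04, 0.654, 0.717 and 1.82 CPM.

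Of 7 fibroblast and fibro-adipogenic progenitor genes, 1 (Col1a1, a fibrillar collagen) was called higher in controls with leptin deficiency, at 1282 and 4113 CPM, and 2 (Dcn and Lum, small proteoglycans) were called lower in GR-mKO mice. With TMM or DESeq2 factors neither of these 2 was called in GR-mKO mice, and Col1a1 was called higher there too. The 5 red blood cell genes were called lower in ob/ob muscle in both genotypes, from a sum of 2232 CPM in lean control and 2130 CPM in lean GR-mKO to 972 and 873 CPM in the ob/ob libraries, of which 1 (Alas2) lost its call in GR-mKO mice with TMM and DESeq2 factors. Their part in the levels of the adipocyte genes was not tested.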
